A study of Mus musculus with 8 samples.

Results

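The fibril collagens of cartilage were measured in sorted cells of the mouse vertebral column with and without functional Sox9. All probes that could be named as Col2a1, Col9a1, Col9a2, Col11a1 or Col27a1 were taken, found by the NCBI gene identifier carried in the probe names of the deposited value table, which gave 7 probes of 5 genes among 46643 probes, 8407 of them named after 7111 genes. Further probes of these genes may lie among the unnamed ones. The series held 8 Illumina WG-6 arrays of total RNA from EGFP-positive cells sorted from the vertebral column at E12.5, 4 labelled HOMO and 4 labelled WT, all of a mixed C57BL/6J and 129 background. In HOMO cells EGFP stood in place of Sox9, and the HOMO cells came from chimaeric embryos because homozygous embryos die before this day. In WT cells EGFP followed an intact Sox9 gene behind an internal ribosome entry site, and the design text describes the embryos as heterozygous for the knocked-in allele. The methods name 4 biological replicates per genotype. Which version of the array was used could not be settled, as the labels give one and the methods another.

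Cartilage fibrils are mixed polymers. Type II collagen, made of chains encoded by Col2a1, forms the bulk of the fibril, type XI collagen, which includes the Col11a1 chain, lies in its core and sets its diameter, and type IX collagen, built from the Col9a1, Col9a2 and Col9a3 chains, decorates its surface. Type XXVII collagen, encoded by Col27a1, forms thin fibrils in cartilage. Sox9 is the transcription factor required for cartilage formation, and it binds enhancers of Col2a1 and of other cartilage collagen genes together with Sox5 and Sox6.

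In these arrays both named Col2a1 probes and the single named probes of Col9a1, Col9a2 and Col27a1 were lower on every HOMO array than on any WT array, in intensity, in rank within the array and in normalized level. Of the 7 probes, 6 passed the detection filter (a detection value above 0.95 on at least 3 of the 8 arrays), and limma called 5 of these 6 lower in HOMO, 0 higher and 1 in neither direction, at an adjusted p of at most 0.05. The same test called 48.5% of all 21002 kept probes lower and 24.8% higher, 73.3% in either direction; a call in itself was therefore common on these arrays. The median log2 difference, HOMO minus WT, was -3.41 over the 6 kept collagen probes and -0.56 over all kept probes. Col9a2, Col27a1 and Col11a1 probe A passed the filter through the WT arrays alone, so these counts and this median are descriptions and support nothing further.

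The arrays of the groups differed in overall signal, which touches every value below. Mean intensity was 7.88 ± 2.43 on the HOMO and 328.9 ± 33.1 on the WT arrays (SD, n = 4 each), and 18.3% ± 2.22 of the probes were detected on HOMO arrays against 44.8% ± 0.85 on WT arrays (SD, n = 4 each). The brightest HOMO array was dimmer than the dimmest WT array, and signal, chimaeric origin and genotype therefore cannot be told apart. Sox9 had no named probe. The eGFP probe was not detected on any HOMO array (intensity -5.0 to -1.1) and was detected on all 4 WT arrays (92.4 to 116.6). Its WT level of 6.19 lay below the lowest level at which any probe was detected on HOMO arrays (7.09 on average, against 4.76 on WT arrays, log2), so an equal level could have gone undetected there, and the probe does not check the labels. Of 6 chondrogenic marker genes (Sox9, Acan, Hapln1, Matn1, Matn4, Cnmd) 0 had a named kept probe, so the sorted cell type could not be checked against them.

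Intensities are the background-subtracted values of the deposited table and can be negative. Ranks run from 1 for the brightest of all probes on an array, and the percentile is the share of probes on the same array that were dimmer. Neither changes when a whole array is multiplied by a constant, but on a dim array more probes fall below detection, where ranks have no measured order. Normalized levels are log2 values after background correction and quantile normalization. In bulk RNA of sorted cells, fewer cells with a transcript and less transcript per cell cannot be told apart.

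Col2a1 (NCBI gene 12824, chromosome 15, 97975602 to 98004724 in GRCm38.p6) was represented by 2 probes. Probe A had intensities of 37.9, 15, 3.8 and 18.6 on the HOMO arrays, against 7593.4, 7091.1, 7581.1 and 10366.8 on the WT arrays. It was detected on 3 of 4 HOMO arrays, replicate 3 being the exception with a detection value of 0.828, and on 4 of 4 WT arrays. Its ranks were 2077.5, 4337, 13486.5 and 4053.5 in HOMO and 315, 368, 264 and 210 in WT. On WT arrays the probe thus stood near the top of the array, and the best HOMO array did not reach the lowest WT rank. The normalized level was 8.18 ± 1.70 in HOMO and 12.03 ± 0.29 in WT (SD, n = 4 each), a log2 difference of -3.85 (SE 0.74, limma adjusted p = 0.00163). HOMO replicate 3 widened the HOMO spread, and without it the difference was -3.05. The mean percentile was 87.2 ± 10.9 in HOMO and 99.4 ± 0.15 in WT (SD, n = 4 each), a difference of -12.2, or -6.86 without HOMO replicate 3.

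Col2a1 probe B was the one collagen probe detected on all 8 arrays, and so the one whose level was measured throughout. Its intensities were 64.4, 27.2, 17.4 and 55.8 in HOMO, against 7017.5, 6862.5, 8616.5 and 10041.7 in WT. Its ranks were 1190, 1845, 2848 and 1188 in HOMO and 347, 382, 222 and 216 in WT. In units of the mean intensity of its own array it stood at 4.91 ± 1.39 in HOMO and 25.1 ± 6.26 in WT (SD, n = 4 each), above the array mean in both groups. The probe therefore remained among the brighter probes of the HOMO arrays, at a mean percentile of 96.2 ± 1.68 against 99.4 ± 0.18 in WT (SD, n = 4 each). The percentile difference was -3.16 (exact permutation p = 0.0286, two-sided, the smallest that 4 against 4 arrays allow). The normalized level was 9.97 ± 0.54 in HOMO and 12.03 ± 0.36 in WT (SD, n = 4 each), a log2 difference of -2.06 (SE 0.30, limma adjusted p = 2.91e-04), which is 4.16-fold lower on this scale. The size depended on the scaling: the difference was -4.28 in the authors' normalized table and -6.63 with median centring, fits in which the median of all probes was also lower, at -1.83 and -2.26.

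The 2 Col2a1 probes differed in one detection call. On HOMO replicate 3 probe B was detected and probe A was not. The log2 differences were -3.85 (SE 0.74) for probe A and -2.06 (SE 0.30) for probe B, both lower in HOMO, and the difference between the probes was not tested.

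**Figure D1:**
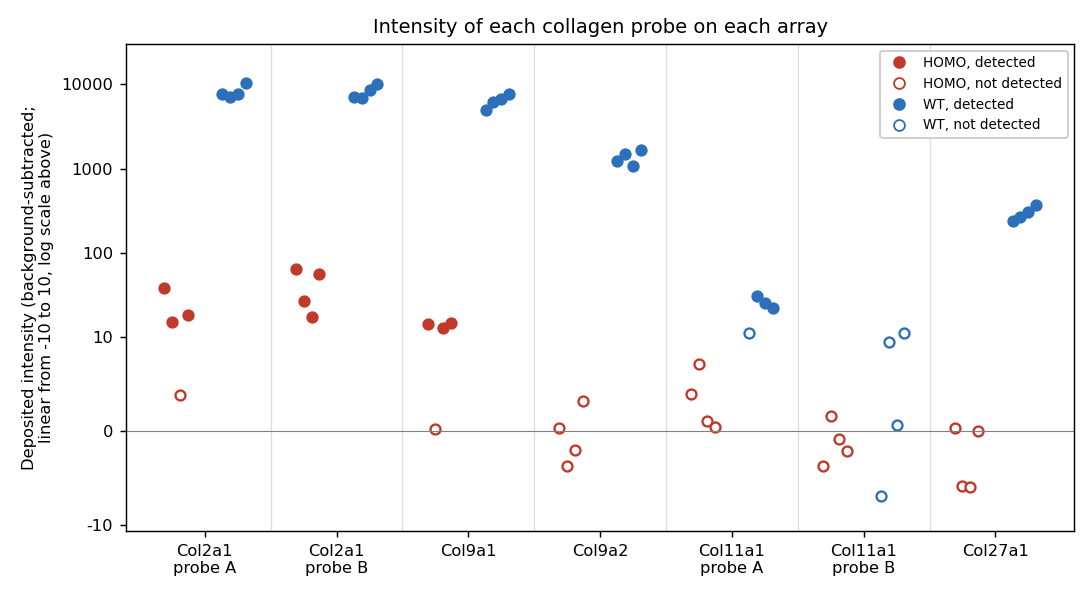
Deposited intensity of the 7 collagen probes on each array (points), HOMO in red left of WT in blue, replicates 1 to 4 from left to right, filled where detected. The axis is linear between -10 and 10 and logarithmic above. The highest HOMO value was 64.4, for Col2a1 probe B, and the WT values of Col2a1 and Col9a1 lay between 4966.5 and 10366.8.

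The type IX chains followed. Col9a1 (NCBI gene 12839, chromosome 1, 24177589 to 24252738), a chain of the surface collagen, had intensities of 14.2, 0.2, 12.8 and 14.6 in HOMO, against 4966.5, 6130.0, 6670.1 and 7557.8 in WT. It was detected on 3 of 4 HOMO arrays, replicate 2 being the exception with a detection value of 0.549, and on 4 of 4 WT arrays. Its ranks were 5942, 24958, 4430.5 and 5412 in HOMO and 526, 436, 305 and 311 in WT. The 3 HOMO arrays that detected it lay close together and far below the WT arrays. The normalized level was 7.29 ± 1.83 in HOMO and 11.66 ± 0.33 in WT (SD, n = 4 each), a log2 difference of -4.37 (SE 0.80, limma adjusted p = 0.00123), and -3.47 without HOMO replicate 2. The mean percentile was 78.2 ± 21.2 in HOMO and 99.2 ± 0.23 in WT (SD, n = 4 each), a difference of -21.0, or -10.4 without HOMO replicate 2.

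Col9a2 (NCBI gene 12840, chromosome 4, 121039566 to 121055325), another chain of type IX collagen, was not detected on any HOMO array, with intensities of 0.3, -3.7, -2.0 and 3.2, against 1220.5, 1502.1, 1059.9 and 1655.1 on the WT arrays, all detected. Its ranks were 25993, 38554.5, 33461 and 16537 in HOMO and 2794, 2529, 2688 and 1960 in WT. On the HOMO arrays it thus scattered widely among undetected probes. Since it had no measured level in HOMO, its fold is a bound: Col9a2 was at least 5.15-fold lower, set against the mean over the HOMO arrays of the lowest level of any detected probe. The bound holds for the normalized levels, was not computed under another scaling and was not tested. Its fitted difference of -4.82 (limma adjusted p = 4.35e-07) rests on undetected HOMO values and is not a measured size. The mean percentile was 38.6 ± 20.5 in HOMO and 94.7 ± 0.80 in WT (SD, n = 4 each).

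Promoters of both type IX genes held the core motif of the Sox family, shown here because the study removed a Sox factor; binding was not measured on these arrays. The windows of 250 bases before to 50 bases after each annotated start, from RefSeq on GRCm38.p6, were searched on both strands for the 8 forms made of CAAAG or CAATG with any pair of A and T letters before it. Of the 5 windows held for the collagen genes (2 for Col9a1 and 1 each for Col9a2, Col11a1 and Col27a1) 2 had a match. No window was held for Col2a1, so its promoter was not searched. Capitals mark the match, on the strand of the gene, and in the Col9a2 window the match reads on the opposite strand. Distances are counted from the annotated start on which each window was built. For Col9a1 (window 24177360 to 24177659) that start is not the first base of the gene given above.
Col9a1 (chr1:24177413-24177441, plus strand, 186 bases upstream of the start): ttataacaactTTCAAAGcctctactgtg
Col9a2 (chr4:121039377-121039405, plus strand, 178 bases upstream of the start): caggaggaaggCTTTGATcttggaggcaa
The motif is common: 24.6% of 32851 promoter windows of this length held at least 1 form. A match is a description of the letters and not a measured binding site.

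Col27a1 (NCBI gene 373864, chromosome 4, 63214009 to 63334991), the thin-fibril collagen, was not detected on any HOMO array, with intensities of 0.3, -5.9, -6.0 and 0.0, against 240.8, 264.9, 303.5 and 374.9 on the WT arrays, all detected. Its ranks were 25993, 43446, 44238 and 26741 in HOMO and 8447, 8515.5, 6813 and 6522.5 in WT. On HOMO replicates 2 and 3 it was among the dimmest probes, and on WT arrays it lay around the array mean. Its WT level of 7.39 ± 0.34 (SD, n = 4) was just above the mean of the lowest detected levels of the HOMO arrays, and against that mean Col27a1 was at least 1.23-fold lower (limma adjusted p = 1.96e-06, fitted on undetected HOMO values). On HOMO replicate 3, where the lowest detected level was 7.49, the WT level would itself have been below it, so the bound does not hold against that array alone. In units of the mean intensity of its own array, Col27a1 stood at 0.91 ± 0.23 in WT (SD, n = 4). On HOMO replicate 2 Col11a1 probe A was undetected at 1.08 such units, so the bound does not carry over to that scale. The mean percentile was 24.7 ± 21.7 in HOMO and 83.8 ± 2.26 in WT (SD, n = 4 each).

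Col11a1 (NCBI gene 12814, chromosome 3, 114030479 to 114220756), which encodes a chain of the fibril core, was the exception, and its 2 probes were dim in both genotypes. Probe A had intensities of 4.0, 7.1, 1.1 and 0.4 in HOMO, detected on 0 of 4 arrays, against 11.2, 31.1, 25.6 and 22.3 in WT, detected on 3 of 4 arrays, with replicate 1 below the limit. Its ranks were 16118.5, 9489, 21278.5 and 25255.5 in HOMO and 23972, 17983.5, 17642.5 and 19510 in WT, so the groups overlapped. The fitted difference of 0.46 (SE 0.45, limma adjusted p = 0.385) did not pass the test. It compares WT values near the detection limit with undetected HOMO values, and no fold is given. The mean percentile was 61.3 ± 14.6 in HOMO and 57.6 ± 6.24 in WT (SD, n = 4 each; exact permutation p = 0.686).

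Col11a1 probe B was not detected on any of the 8 arrays and was not tested. Its intensities were -3.7, 1.6, -0.8 and -2.1 in HOMO and -6.9, 9.5, 0.6 and 11.2 in WT. Its mean percentile was 34.3 ± 17.2 in HOMO and 34.9 ± 17.4 in WT (SD, n = 4 each; exact permutation p = 0.943). These arrays therefore gave no measured level of Col11a1 in HOMO cells and a level at the limit in WT cells. No difference in Col11a1 was measured at this signal: probe A passed the test with scaling by median absolute deviation (1.58, limma adjusted p = 0.0384) and when ranked among kept probes (percentile difference 28.7, exact permutation p = 0.0286), both on undetected HOMO values, and its sign turned with median centring (-0.28).

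**Figure D2:**
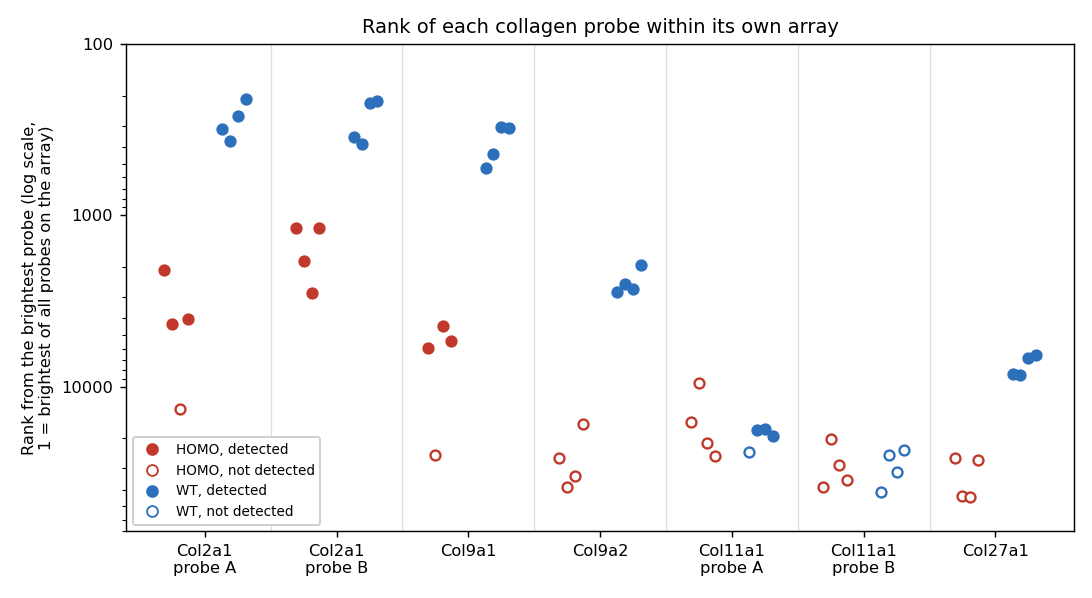
Rank of each collagen probe within its own array (log axis, 1 for the brightest of 46643 probes, brighter probes at the top), HOMO in red left of WT in blue, replicates 1 to 4 from left to right, filled where detected. The groups do not overlap for 5 probes and overlap for both Col11a1 probes.

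The ranks of 5 of the 7 collagen probes lay lower on every HOMO array than on any WT array, as did those of 24.2% of all 46643 probes and 46.2% of the kept probes, while 23.6% of the kept probes ranked higher on every HOMO array. For each of these 5 probes the exact permutation test of the percentile gave p = 0.0286 (two-sided, 5 of 7 probes so tested, the smallest p possible here), and the differences were -3.16 and -12.2 for Col2a1 probes B and A, -21.0 for Col9a1, -56.1 for Col9a2 and -59.0 for Col27a1. Percentile differences of probes that were undetected in HOMO rest on ranks among unmeasured values and have no finer order.

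Detection in HOMO was also read against how bright a probe was in WT. Among the 18629 probes detected on all 4 WT arrays, 51.1% were undetected on every HOMO array and 27.4% were detected on all 4. Among the 3301 of these with a mean WT intensity of at least 1000, a limit chosen after the values were seen, only 7.6% were undetected on every HOMO array and 72.4% were detected on all 4. Col2a1 probes A and B, Col9a1 and Col9a2 belonged to this bright class, and of these 4 probes 1 (Col2a1 probe B) was detected on all 4 HOMO arrays. Col2a1 probe A and Col9a1 were each detected on 3 of 4 HOMO arrays. Col9a2, whose mean WT intensity of 1359.4 lay close to the limit of the class, was detected on 0. Col27a1 belonged to the 8799 probes between 100 and 1000, of which 53.6% were undetected on every HOMO array, so its lack of detection was common for that brightness.

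The normalized differences were placed among those of all kept probes. Of these, 0.895% had a lower difference than Col9a1, 2% than Col2a1 probe A and 16.7% than Col2a1 probe B. Col9a1 and Col2a1 probe A were each undetected on 1 HOMO array, so their place rests in part on an undetected value, and probes undetected on every HOMO array have no measured place. The differences of Col9a1 and Col2a1 probe A, -4.37 (SE 0.80) and -3.85 (SE 0.74), lay within 1 SE of each other. A difference between genes was not tested.

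**Figure D3:**
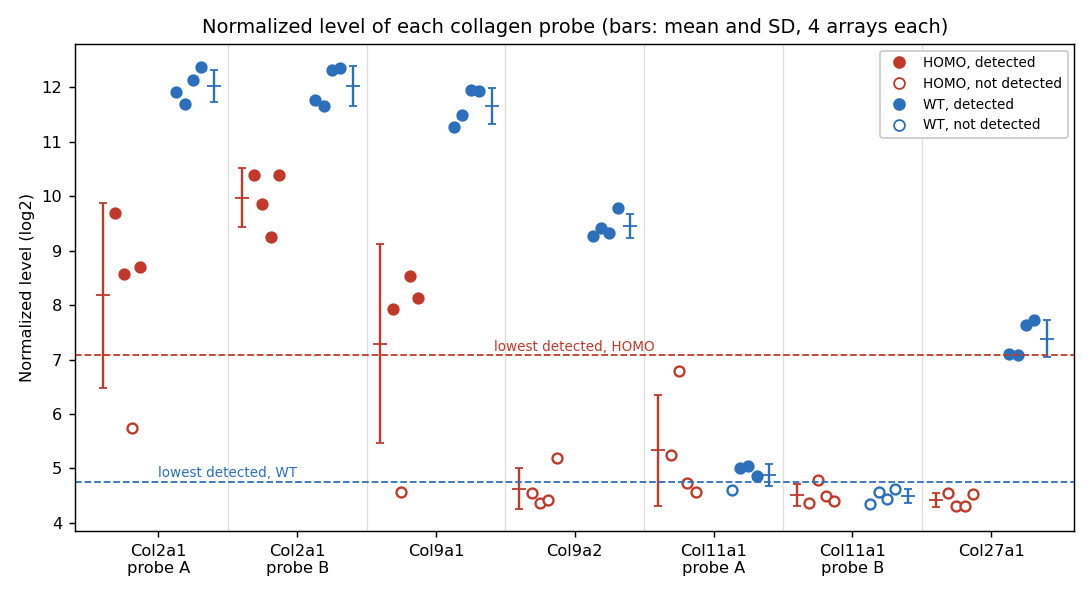
Normalized level (log2) of the 7 collagen probes, HOMO in red left of WT in blue. Points are arrays, filled where detected, bars give the mean and SD of 4 arrays, and dashed lines give the mean lowest level of any detected probe, 7.09 for HOMO and 4.76 for WT. The HOMO points of Col9a2, Col11a1 and Col27a1 all lie below the HOMO line.

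Among the 4 WT arrays, replicates 3 and 4 had higher levels of these collagens than replicates 1 and 2. Over the 5 probes detected on all WT arrays the mean normalized level was 10.27, 10.27, 10.67 and 10.83 in WT replicates 1 to 4. Over 5 neuron genes (Dcx, Nefm, Snap25, Tubb3, Elavl3) it was 8.06, 8.35, 7.31 and 7.35 on the same arrays, highest where the collagens were lowest. The summed intensity of the neuron genes was 41.9 to 48.0 in HOMO and 2192.8 to 7577.4 in WT. In HOMO 3 genes were called lower (Dcx, Nefm, Elavl3), 1 higher (Snap25) and 1 not called (Tubb3). Over all kept probes 48.5% were called lower and 24.8% higher. Nefm was undetected on every HOMO array. Snap25 was detected on 4 of 4 HOMO and 2 of 4 WT arrays and was higher by 4.05 (SE 0.23, limma adjusted p = 1.31e-06). The part of neuronal cells in the collagen values was not tested.

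Markers of other cell types were read in the same way, beside the same shares over all kept probes (48.5% called lower, 24.8% higher). Of 3 endothelial genes 2 were called higher in HOMO (Pecam1 and Eng), with summed intensities of 21.2 to 41.8 in HOMO and 176.9 to 709.4 in WT. Of 3 erythroid genes 2 were called higher (Hba-x and Hbb-b1), with sums of 21.2 to 270.9 in HOMO and 1457.4 to 4337.9 in WT. Of 3 macrophage and leukocyte genes 2 were called lower (Dab2 and Cd68) and 1 higher (Lcp1), with sums of 12.8 to 30.2 in HOMO and 2499.2 to 2947.7 in WT. The WT sums were almost all Dab2 (mean 2775.7). Cd68 (mean 18.85) and Lcp1 (mean 29.6) were each detected on 3 of the WT arrays. On the HOMO arrays Cd68 was detected on 0 of 4 and Lcp1 on 1 of 4, so both calls rest entirely or mostly on undetected HOMO values. The part of these cells in the collagen differences was not tested.

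The other genes that build, process and surround the fibril were called in both directions. So were all kept probes, 48.5% lower and 24.8% higher, which is the background of each list below. Of 4 further listed collagens (Col9a3, Col11a2, Col10a1, Col24a1) 1 had a named kept probe. Col24a1, a minor fibrillar collagen, was undetected on every HOMO array and called lower (limma adjusted p = 3.25e-06, fitted on undetected HOMO values). Its WT level of 7.35 lay 1.20-fold above the mean of the lowest detected levels but below that of HOMO replicate 3 (7.49), so this is not a firm bound. Of 10 other fibrillar and fibril-associated collagens 5 were measured, with 2 called lower, 2 higher and 1 not called. Col3a1, the collagen of soft connective tissue, was undetected in HOMO and at least 12.48-fold lower, and Col1a2, a chain of type I collagen, differed by -3.04 (SE 0.57). Col1a1, the partner chain of Col1a2, was higher by 1.36 (SE 0.46, limma adjusted p = 0.0261), and Col5a1, which starts type I fibrils, was higher by 0.61 (SE 0.19, limma adjusted p = 0.0172). Relative to the median of all probes these last 2 turned to -0.96 and -1.92 with median centring. They stayed above it in the authors' normalized table (1.11 and 0.40) and with scaling to the array mean (1.63 and 0.92). Col2a1 differed downward under each scaling, while Col1a1 and Col5a1 turned only with median centring among the scalings named here.

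Enzymes and carriers that modify, fold, export or crosslink collagen went in both directions. Of 33 such genes 11 had a kept probe, 3 of them called lower, 5 higher and 3 not called, with a median difference of 0.14 against -0.56 over all kept probes. Serpinh1, the chaperone of procollagen, was detected on all 8 arrays and differed by 0.14 (SE 0.15, limma adjusted p = 0.421), with mean intensities of 361.9 in HOMO and 12114 in WT. Bmp1, which takes off the C-propeptide of fibrillar procollagens, was higher by 1.36 (SE 0.19), Pcolce, which enhances that step, by 1.20 (SE 0.18), and Loxl1, a lysyl oxidase that crosslinks matrix proteins, by 1.03 (SE 0.16). Relative to all probes these 3 turned to -1.14, -1.09 and -1.503 with median centring, whereas P4ha3, a prolyl hydroxylase subunit, and Furin, a proprotein convertase, stayed above 0 at 0.57 and 1.54. Sec23a, a coat protein of the vesicles that carry procollagen out of the endoplasmic reticulum, was undetected in HOMO and at least 2.29-fold lower. P3h2 and Adamts2 were called lower with no bound, since their WT level was no higher than the detection limit in HOMO. Relative to all probes P3h2 lay at -0.56 with median centring, 0.06 in the authors' normalized table and 0.57 with scaling to the array mean.

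Of 19 other cartilage matrix genes 4 were measured, with 2 called lower (Mia at least 5.67-fold, Papss2 with no bound), 1 higher (Hspg2) and 1 not called (Dcn). Their median difference was -1.91, against -0.56 over all kept probes. Of 10 chondrogenic regulators 6 were measured, with 2 called lower (Sox5, -1.06, and Wwp2, -1.41), 1 higher (Sox6, 2.57) and 3 not called (Fgfr3, Pth1r, Runx2). Their median difference was 0.24, against the same -0.56.

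**Figure D4:**
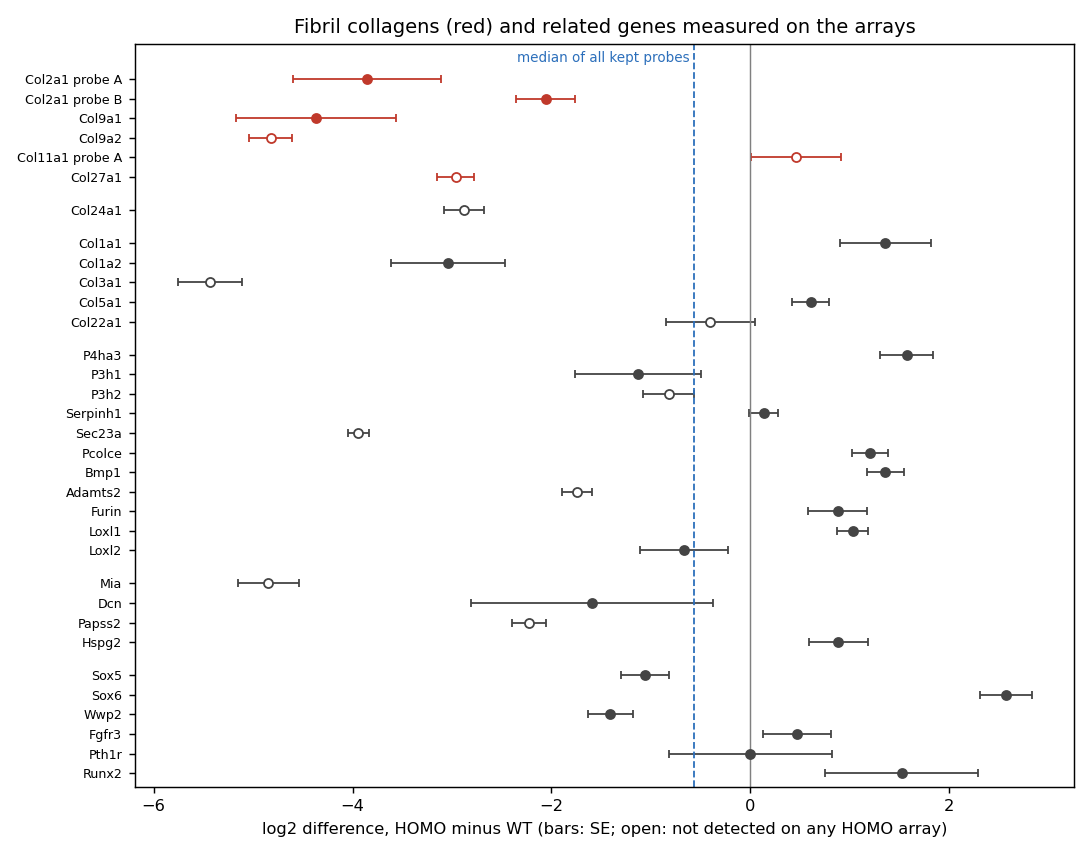
Log2 difference, HOMO minus WT, with SE for the 6 kept collagen probes (red) and for the measured genes of the related lists (grey), grouped from top to bottom as Col24a1, other fibrillar collagens, collagen-modifying genes, other cartilage matrix and chondrogenic regulators. Open points were undetected on every HOMO array and are not measured folds. The dashed line is the median of all kept probes, -0.56, and all collagen members but Col11a1 probe A lie left of it.

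Likeness could be described for Col2a1 probe B alone, as the one member detected on all 8 arrays. Among 1472 named probes likewise detected, the highest Pearson correlations over the 8 arrays were those of Osbpl9 and Wwp2 (both 0.99), Etfa (0.99), Mrpl20 (0.98) and Snx2 (0.98), and 7.34% of the candidates exceeded 0.9. The points share the difference between the groups. With each group mean taken off, Tsen15, Mnat1, Nucb1 (each 0.99), Mgp and Nubp1 (both 0.98) came first, and 3.33% exceeded 0.9. The arrays of a group share differences in brightness, so these are descriptions of 8 arrays.

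The median of all probes lay between -2.26 (median centring) and -0.31 (offset 50) under the other scalings and background corrections, and at 0.05 with no detection filter and 0.63 among probes detected on all 8 arrays, so the collagens were also read relative to it. It was -0.56 in the fit described above, in which 33.9% of called probes were higher in HOMO, and this share was 4.26% with median centring, 18.2% in the authors' normalized table, 43.6% with scaling to the array mean, 44.6% with no detection filter and 78.7% among probes detected on all 8 arrays. Relative to the median of the same fit, Col2a1 probe B lay between -4.37 and -0.65 over 12 fits, Col2a1 probe A between -5.09 and -2.58, Col9a1 between -5.03 and -3.12, Col9a2 between -6.91 and -2.83 and Col27a1 between -5.82 and -1.15 over 11 fits each. All 5 were thus lower than the median probe in every fit that held them. The fits are not separate checks: the fit described above, the ordinary analysis of variance and the replicate block share the same differences by construction. For Col9a2 and Col27a1 each fit rests on undetected HOMO values. Col11a1 probe A lay above that median in all 11, between 0.41 and 2.19, as an undetected HOMO value set against a WT value at the limit.

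**Figure D5:**
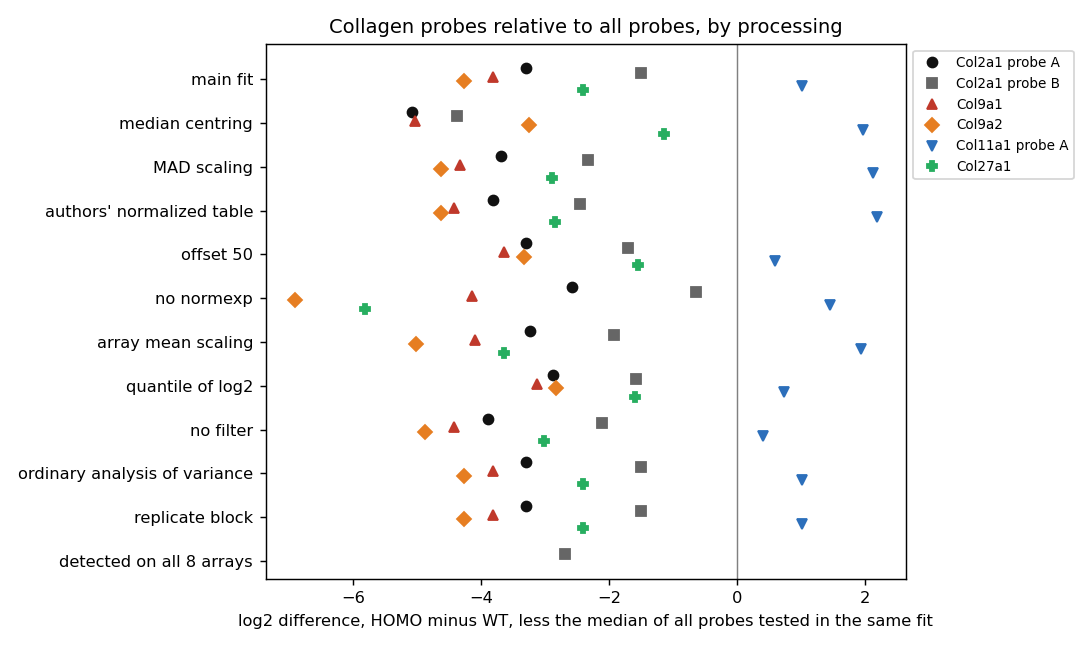
Log2 difference, HOMO minus WT, of the 6 kept collagen probes less the median of all probes in the same fit (x axis), for each way of processing that used all 8 arrays (y axis). The 5 probes called lower stay left of 0 in each, Col2a1 probe B coming closest at -0.65 without background correction, and only this probe remains when detection on all 8 arrays is required. The main fit, the ordinary analysis of variance and the replicate block show the same points by construction.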

How the data were processed

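Total RNA was labelled with a TargetAmp-Nano kit and hybridized to Illumina WG-6 arrays. The authors deposited background-subtracted intensity values from GenomeStudio (version not given in the sources used here) and, beside each, a detection p-value that is near 1 for bright and near 0 for dim probes, hence read as 1 minus p. The authors also deposited log2 values that they had normalized (per the methods by median absolute deviation, MAD). Of 46624 rows of that table, 38432 (82.4%) matched 1 row of the intensity table by their 8 values, which gave probe names. Numbers in those names were read as NCBI gene identifiers: 54.0% to 93.3% of them were mouse genes in 5 ranges.

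Intensities were corrected with normexp from the detection values (offset 16), quantile-normalized and log2-transformed (limma 3.58.1, R 4.3.3). Probes with a detection value above 0.95 on at least 3 of 8 arrays were kept (21002), without 3 detected control probes. Genotype was tested with lmFit and eBayes, Benjamini-Hochberg adjustment over all kept probes and a limit of 0.05, and the procedure was tested on simulated data. Ranks and exact permutation tests used Python 3.11.15, pandas 2.3.3, numpy 2.4.6 and scipy 1.17.1, and figures matplotlib 3.10.9. The number of arrays limits the precision. A bound sets the WT mean against the mean over the HOMO arrays of each array's lowest level of any detected probe (6.83 to 7.49). Every bound given holds for the quantile-normalized levels and was not computed under the other scalings. Named genes are all named probes of the 5 collagens, the brightest kept probe of each listed gene and the genes most like a collagen. The genes, lists and tests were chosen with earlier results of these data known. Alternatives covered scaling, offset, background correction, filter, test, replicate block and leaving out each array.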

Additional observations from a re-analysis of the deposited data

Results flagged for a closer look

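Of 28 sets of 4 values tested for a single distant array, 3 held one, and chance marks about 1 in 20 such sets. Col9a1 on HOMO replicate 2 had an intensity of 0.2 where the other HOMO arrays had 12.8 to 14.6, and a normalized level of 4.57 where they had 7.93 to 8.54. Col2a1 probe A on WT replicate 4 had an intensity of 10366.8 where the other WT arrays had 7091.1 to 7593.4.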

How the results depend on the processing

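Col2a1 (both probes), Col9a1, Col9a2 and Col27a1 kept their direction and stayed called under each alternative that could fit them, with limma adjusted p-values up to 0.0291 (Col9a1 without normexp). For Col9a2 and Col27a1 every fit set WT signal against undetected HOMO values. Their unchanged calls and the differences given for them below are therefore no check and no measured sizes. Requiring detection on all 8 arrays left Col2a1 probe B alone and 3682 called probes, against 15395. Leaving out 1 array gave -4.38 to -3.05 for Col2a1 probe A, -2.20 to -1.82 for probe B, -4.84 to -3.47 for Col9a1, -5.16 to -4.56 for Col9a2, -3.14 to -2.70 for Col27a1 and 14297 to 15590 called probes. Col11a1 probe A was unsettled: -0.28 with median centring (adjusted p = 0.0800), 1.58 with MAD scaling (adjusted p = 0.0384, limma, computed over kept probes because the MAD over all probes was 0 on 3 HOMO arrays), -0.033 without HOMO replicate 2 (-0.03 to 0.75 on leaving out 1 array), and a percentile difference of 28.7 (exact permutation p = 0.0286) when ranked among kept probes. The cause was not tested. Same-numbered arrays did not deviate together (r from -0.03 to 0.03). Most kept probes were undetected on each HOMO array, so this check could not settle whether the replicate numbers pair arrays. With replicate block 14805 probes were called, Col2a1 probe B had a limma adjusted p of 0.00207, Col9a2 of 9.91e-05, and no collagen call changed. Scaling to the array mean and quantile normalization of log2 values were added after the data were seen. The dim HOMO arrays limit each value: no probe with a level under 6.83 was detected there.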
